A study of Mus musculus with 12 samples.

Results

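The response of the wild-type mouse colonic epithelium to 48 h of dextran sulfate sodium (DSS) was measured in 6 of the 12 RNA-seq samples of the study. The samples were chosen by their titles, as 3 wild-type (WT) samples from DSS-treated mice and 3 WT samples from untreated mice. All mice of the series were C57BL/6 mice of 7 to 9 weeks, and the other 6 samples came from mice lacking Nfkb2 (Nfkb2-/-), untreated or given DSS for the same time. The cells were intestinal epithelial cells detached from the colon with 30 mM EDTA, and the labels put the typical purity of such isolates at about 90% EpCAM-positive, CD45.2-negative cells. Of 46517 genes listed, 12522 had enough counts to be tested, and the DSS effect is described across those genes.

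DSS is a sulfated polysaccharide that, given to mice, injures the surface epithelium of the colon and lets luminal bacteria reach the tissue. Mature colonocytes at the surface absorb sodium, chloride, water and short-chain fatty acids, and goblet, tuft, enteroendocrine and stem cells make up the rest of the layer. Injured or infected epithelium is known to answer through NF-kB, which drives cytokine and chemokine genes, through STAT3, which drives acute-phase genes, and through the type I and type II (interferon-gamma) interferon pathways, which act through related STAT complexes.

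The WT libraries held 6323781 to 7743079 counts in the untreated group and 6043476 to 7353227 in the DSS group. The first principal component, with 35.2% of the variance of the 6 samples, separated the treatments. The second, with 22.9%, set untreated replicate 3 (-50.7) apart from untreated replicates 1 (34.9) and 2 (19.6), so the main count is also given without it. CPM are counts scaled to the library total of the genes tested, with that total adjusted by the TMM factor of the library. Epcam, the epithelial adhesion molecule, was at 3261, 3021 and 2390 CPM in the untreated samples and at 2896, 3009 and 2501 CPM under DSS. Its log2 fold change was -0.04 (edgeR quasi-likelihood test, adjusted p = 0.912). No label says that replicate numbers mark a shared cage, litter or day, and the p-values measure the spread between these samples.

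DSS changed 789 genes in WT epithelium, 6.30% of the genes tested. Of these, 351 genes rose, which is 2.80% of the genes tested, and 438 fell, which is 3.50% (edgeR quasi-likelihood test, Benjamini-Hochberg adjusted p under 0.05). The 51 gene lists used here hold 116 of the genes that rose and 111 of those that fell. The lists were chosen with earlier results of these data known, so their counts are a description, and some genes stand in more than 1 list. Each list's counts are to be read beside the 2.80% and 3.50% of all genes tested. The changes were moderate for most of the 789 genes, with a median absolute log2 fold change of 0.865 among those that rose and 0.955 among those that fell. The highest changes were upward, since 33 genes rose by at least 3 on the log2 scale and 16 fell by as much. In 350 of the 351 and 437 of the 438 genes the 3 DSS samples did not overlap the 3 untreated samples. Groups did not overlap in the higher direction for 10.7% of all genes tested and in the lower direction for 9.96%. The count depended on the replicates: it was 483 without DSS replicate 1, 523 without DSS replicate 2, 512 without DSS replicate 3 and 958 without untreated replicate 3. A fit on the 6 WT samples alone, with fewer degrees of freedom, called 467 genes.

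**Figure D1:**
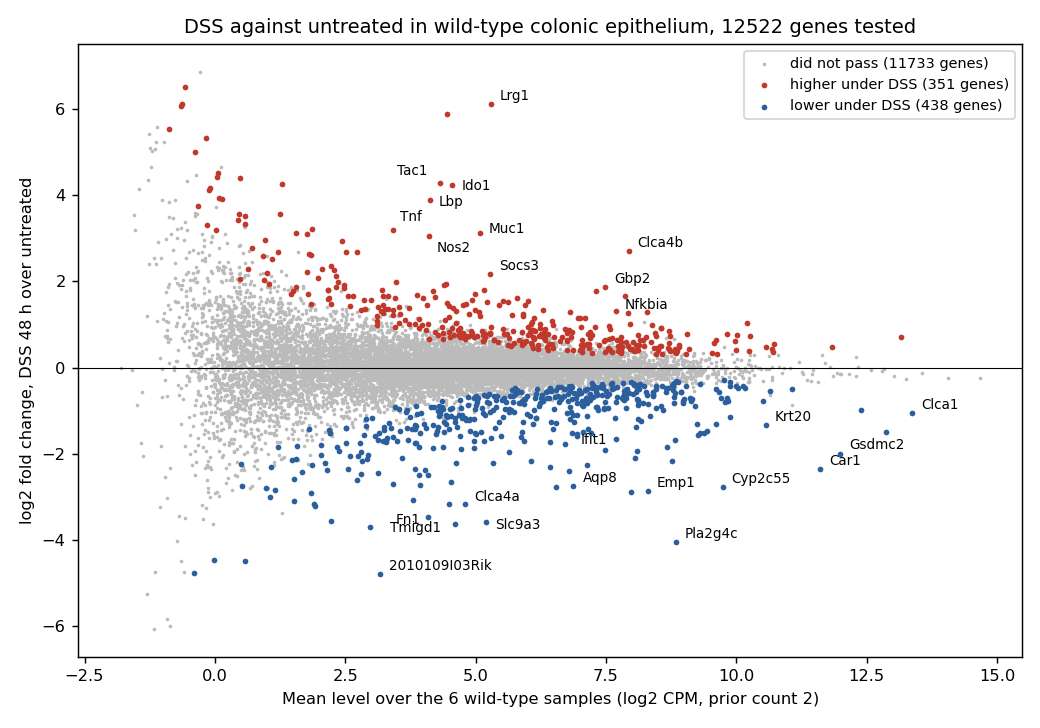
Log2 fold change of each of the 12522 genes tested (DSS 48 h over untreated, y axis) against its mean level over the 6 wild-type samples (log2 CPM, x axis). Red and blue points are the 351 and 438 genes past an adjusted p of 0.05, and the most highly expressed genes among them, such as Clca1 and Gsdmc2, lie on the lower side.

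Lrg1, a secreted glycoprotein of the acute-phase response (chr17:56119678-56122001 in GRCm38, minus strand), showed the largest rise among genes with a mean of at least 3 log2 CPM. It was at 4.37, 3.61 and 5.72 CPM in the 3 untreated samples and at 314, 346 and 298 CPM in the 3 DSS samples, a log2 fold change of 6.12 (SE 0.19, adjusted p = 1.54e-10). The lowest DSS sample, 298 CPM, stood far above the highest untreated sample, 5.72 CPM. Tac1, which encodes the neuropeptide precursor of substance P (chr6:7554879-7565834 in GRCm38, plus strand), went from 3.21, 6.07 and 4.02 CPM to 88.5, 89.7 and 82.5 CPM (log2 fold change 4.30, SE 0.29, adjusted p = 3.96e-07). Ido1, the tryptophan-degrading enzyme of the kynurenine pathway (chr8:24584136-24597009 in GRCm38, minus strand), was at 3.79, 5.09 and 7.26 CPM untreated and at 89.6, 88.4 and 128 CPM under DSS (log2 fold change 4.24, SE 0.27, adjusted p = 2.26e-07). In both genes the lowest DSS sample lay far above the highest untreated one. The genes with the largest changes were picked among those whose groups did not overlap, so the separation itself follows from the choice. Lbp, which carries bacterial lipopolysaccharide to its receptor (chr2:158306493-158332852 in GRCm38, plus strand), rose from 7.14, 4.76 and 2.01 CPM to 72.1, 77.2 and 57.2 CPM (log2 fold change 3.88, SE 0.33, adjusted p = 3.51e-06).

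Other genes with large increases had unlike roles. Muc1, a transmembrane mucin, rose by 3.12 on the log2 scale and Steap4, a metalloreductase of iron and copper, by 1.93. Tns2, an adaptor of focal adhesions, rose by 2.00 and Abcg5, 1 chain of the sterol exporter, by 1.92. Exons of Abcg5 overlap those of Abcg8 on the opposite strand, and the libraries carry no strand marks. Reads from the overlap therefore cannot be told apart by strand. Other named genes also overlap a gene on the opposite strand, among them Duoxa2, Cxcl10, H2-DMa, Tap1, Irf7 and Junb. The calls of Tns2 and Abcg5 were lost when the level of leukocyte markers was added as a covariate.

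The largest decreases included genes of the surface colonocyte and its brush border. The gene 2010109I03Rik (chr15:74876987-74897021 in GRCm38, minus strand) fell by 4.79 on the log2 scale, from 54.5, 53.6 and 28.4 CPM to 2.43, 1.47 and 0.978 CPM (SE 0.36, adjusted p = 1.09e-06). Pla2g4c, a calcium-independent cytosolic phospholipase A2 (chr7:13324655-13360672 in GRCm38, plus strand), was at 2340, 1960 and 1339 CPM untreated and at 119.7, 103 and 122 CPM under DSS (log2 fold change -4.04, SE 0.18, adjusted p = 5.55e-09). Tmigd1, an adhesion protein of the brush border (chr11:76902159-76916587 in GRCm38, plus strand), went from 84.7, 81.7 and 86.1 CPM to 5.77, 6.80 and 7.66 CPM (log2 fold change -3.64, SE 0.19, adjusted p = 2.30e-08). In these genes the untreated samples stood well above every DSS sample, a separation that the rule for picking them required. Untreated replicate 3 was the lowest untreated sample in the first and the second. Further large decreases were those of Fn1, which encodes fibronectin (-3.46), Pnliprp2, a pancreatic-type lipase (-3.17), Dpep1, a membrane dipeptidase (-2.88), Sptssb, a subunit of serine palmitoyltransferase (-2.78), and Ak4, a mitochondrial adenylate kinase (-2.73).

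**Figure D2:**
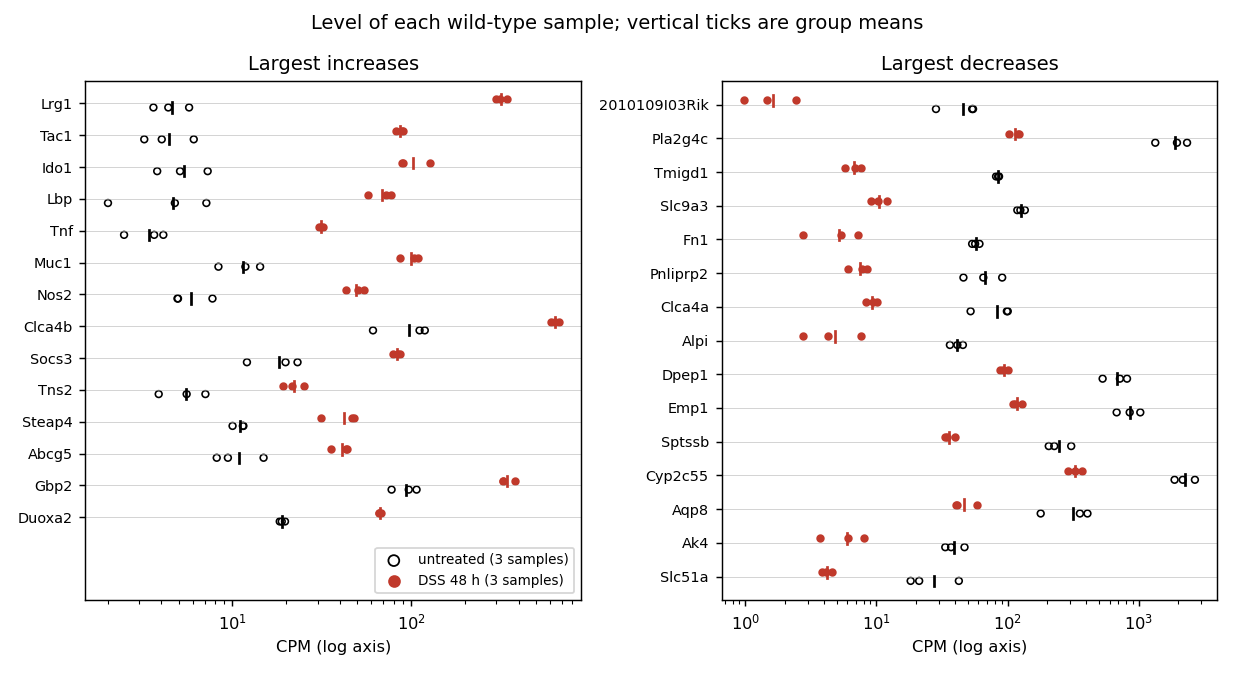
CPM of each WT sample on a log axis for 14 genes with the largest increases and the 15 with the largest decreases among called genes of at least 3 mean log2 CPM whose groups did not overlap. Open black points are the 3 untreated samples, red points the 3 DSS samples and vertical ticks the group means; Lrg1 is at 298 to 346 CPM under DSS and at 3.61 to 5.72 CPM untreated.

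Targets of NF-kB rose under DSS. Of 33 target genes tested, 17 rose and none fell, beside 2.80% and 3.50% of all genes, and their median log2 fold change was 1.17 against 0.006 over all genes tested. The targets can be ordered by role, from cytokines and chemokines to feedback inhibitors and effector enzymes. Tnf, a cytokine that itself activates NF-kB, was at 3.64, 4.10 and 2.47 CPM untreated and at 31.3, 30.4 and 32.1 CPM under DSS (log2 fold change 3.19, SE 0.25, adjusted p = 1.88e-06). Cxcl1, a neutrophil chemokine, was at 1.02, 0.984 and 1.08 CPM and at 9.57, 10 and 9.46 CPM (log2 fold change 3.21, SE 0.32, adjusted p = 1.41e-05). The 3 samples of each group lay close together in both genes, and the groups were far apart.

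The targets that rose include genes known to regulate the pathway, among them the feedback inhibitors Nfkbia and Tnfaip3. Nfkbia, which encodes the inhibitor IkB-alpha, went from 138, 128 and 125 CPM to 334, 337 and 303 CPM (log2 fold change 1.32, SE 0.11, adjusted p = 2.49e-06). Nfkbiz, an inducible IkB protein that acts in the nucleus, went from 139, 152 and 181 CPM to 397, 356 and 382 CPM (log2 fold change 1.26, adjusted p = 5.15e-06). Tnfaip3, the ubiquitin-editing enzyme A20, rose by 1.14 on the log2 scale, and Zc3h12a, an RNase that degrades cytokine messages, by 1.17. Among effectors, Icam1, a leukocyte adhesion molecule, rose by 2.95 and Birc3, an inhibitor of apoptosis, by 0.61. With the leukocyte marker level as a covariate, 8 of the 33 targets rose in place of 17.

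The genes of the pathway's own subunits and activators gave 1 call. Of 20 tested, 1 rose (5.0%, beside 2.80% of all genes) and none fell. The gene that rose was Tnfrsf1b, a TNF receptor, from 50.6, 52.2 and 37.4 CPM to 97.6, 87.2 and 109 CPM (log2 fold change 1.07, adjusted p = 0.00105), a call that was lost with the leukocyte covariate (adjusted p = 0.123). Nfkb2, the subunit that the study deletes in its knockout, was at 30.8, 36.1 and 43.7 CPM untreated and at 41.6, 46.1 and 39.6 CPM under DSS, and the groups overlapped (log2 fold change 0.20, SE 0.19, adjusted p = 0.683). Rela had a log2 fold change of 0.34 (adjusted p = 0.53) and Relb of 0.29 (adjusted p = 0.299), and neither passed. Of 21 Toll-like and NOD-like receptor genes tested, 1 rose (4.76%, beside 2.80% of all genes) and none fell. The gene that rose was Cd14, the lipopolysaccharide co-receptor (log2 fold change 1.30, adjusted p = 2.49e-06). Without untreated replicate 3, 4 genes of that list rose, and DESeq2 called 5.

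The 250 bases before the RefSeq transcription starts of Cxcl1 (chr5:90890995-90891244, plus strand) and Nfkbia (chr12:55492648-55492897, minus strand) are shown because both genes rose and both windows hold the NF-kB word GGGANNTTCC, on either strand, in capitals. Sequences run from 5′ to 3′ on the gene's strand and are those of RefSeq on GRCm38.p6.
Cxcl1: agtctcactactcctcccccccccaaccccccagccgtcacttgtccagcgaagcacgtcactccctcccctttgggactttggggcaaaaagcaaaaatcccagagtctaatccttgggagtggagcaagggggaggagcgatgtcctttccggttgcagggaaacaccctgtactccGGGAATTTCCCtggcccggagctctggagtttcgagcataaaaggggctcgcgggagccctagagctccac
Nfkbia: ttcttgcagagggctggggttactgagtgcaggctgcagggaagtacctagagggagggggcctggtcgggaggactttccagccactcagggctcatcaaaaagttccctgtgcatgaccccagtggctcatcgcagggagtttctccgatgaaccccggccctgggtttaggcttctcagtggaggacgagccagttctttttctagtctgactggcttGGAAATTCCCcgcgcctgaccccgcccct
In Cxcl1 the word matches on both strands at overlapping places, so its capitals run over 11 bases. The word was in 1.21% of the 32851 promoter windows of the table. Among tested NF-kB targets, 28 genes had 33 windows in the table, and 5 of these windows (15.2%) held the word. Over all called genes with a window, the word was in 2.08% of the windows of genes that rose and in 1.28% of those of genes that fell. Windows of all tested genes held it in 1.31%. A match is a description of these letters, not a binding site or a cause.

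Chemokine genes, some of which are also NF-kB targets, rose in 7 of 16 tested and fell in none. Ccl20, which attracts CCR6-positive lymphocytes and dendritic cells, went from 1.90, 2.79 and 1.54 CPM to 11.7, 9.47 and 8.81 CPM (log2 fold change 2.26, SE 0.28, adjusted p = 1.26e-04). Cxcl9 and Cxcl10, ligands of CXCR3, a chemokine receptor of T cells, rose by 2.62 and 2.36 on the log2 scale. Ccl6, Cxcl5 and Cxcl16 also passed. With the leukocyte marker level as a covariate 2 of the 16 rose, and neither Ccl20 nor Cxcl9 passed.

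Acute-phase and STAT3 target genes rose in 9 of 23 tested and fell in 1. Beside Lrg1 and Lbp, the receptor subunit gene Osmr, through which oncostatin M signals, was at 1.90, 2.13 and 2.32 CPM untreated and at 10.5, 14.4 and 16.3 CPM under DSS (log2 fold change 2.69, adjusted p = 3.64e-04). Socs3, the feedback inhibitor of STAT3 signalling, went from 19.8, 23.1 and 12.1 CPM to 84.3, 86.9 and 78.9 CPM (log2 fold change 2.19, SE 0.21, adjusted p = 1.24e-05). Complement C3 rose by 1.34 and Stat3 itself by 0.39. The gene that fell was Ceacam1, an adhesion molecule that shares 30.4% of its 50-base words with related genes (log2 fold change -0.99). With the leukocyte covariate 5 of the 23 rose and 2 fell.

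Antimicrobial genes moved in both directions. Of 18 tested, 4 rose and 7 fell. Lcn2, which withholds bacterial siderophores, had counts of 1, 1 and 0 untreated and of 11, 21 and 20 under DSS. Slpi, a secreted protease inhibitor, rose by 3.09 on the log2 scale and Pla2g2a, a secreted bactericidal phospholipase, by 1.61. Among those that fell, Ang4, an angiogenin of the crypt base, went from 514, 408 and 175 CPM to 82.6, 119 and 88.7 CPM (log2 fold change -1.92, SE 0.30, adjusted p = 8.77e-04), and Reg4, a marker of deep-crypt secretory cells, went from 1335, 991 and 545 CPM to 194, 245 and 204 CPM (log2 fold change -2.16, SE 0.24, adjusted p = 4.77e-05). Itln1, an intelectin that binds microbial sugars, had a log2 fold change of -1.89 and Retnlb, a bactericidal goblet cell product, of -1.27, and both fell. Untreated replicate 3 was the lowest untreated sample for Ang4, Reg4 and Itln1. The C-type lectins Reg3b and Reg3g had log2 fold changes of 0.16 (adjusted p = 0.918) and 0.36 (adjusted p = 0.758). Without DSS replicate 3, 2 genes rose and 6 fell.

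Enzymes that make reactive oxygen and nitrogen rose in 4 of 11 genes tested. Nos2, the inducible nitric oxide synthase, was at 4.96, 4.92 and 7.73 CPM untreated and at 54.2, 42.9 and 50.5 CPM under DSS (log2 fold change 3.06, SE 0.22, adjusted p = 6.58e-07). Duoxa2, which matures the epithelial oxidase DUOX2, went from 19.7, 18.9 and 18.4 CPM to 68.0, 66.3 and 65.7 CPM (log2 fold change 1.81, SE 0.18, adjusted p = 1.23e-05). Duox2 itself rose by 0.79, a call lost without DSS replicate 1 or 3. Cybb, the phagocyte oxidase chain, rose by 3.34 from a low level.

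The 2 interferon lists moved in opposite directions. Of 24 genes known to be induced mainly by interferon-gamma, 19 rose and none fell, with all 24 log2 fold changes above 0 and a median of 0.850. Of 30 genes of the type I interferon response, 14 fell and none rose, with 27 of 30 log2 fold changes below 0 and a median of -0.46. Each group is set against 2.80% of all genes that rose and 3.50% that fell. The lists share no gene, although many of their members answer to both interferons. Both lists were chosen with earlier results of these data known, and how far the placing of such genes shaped the split was not tested.

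Gbp2, an interferon-induced GTPase that attacks the vacuoles of intracellular pathogens, was at 107, 77.8 and 97.0 CPM untreated and at 329, 326 and 380.1 CPM under DSS (log2 fold change 1.88, SE 0.13, adjusted p = 4.54e-07). Wars, the tryptophanyl-tRNA synthetase, went from 286, 256 and 277 CPM to 552, 474 and 512 CPM (log2 fold change 0.91, SE 0.09, adjusted p = 1.78e-05). The related GTPases Gbp4, Iigp1, Igtp and Tgtp1 rose by 1.70, 0.98, 0.76 and 1.77 on the log2 scale, and Tgtp1 shares 81.2% of its 50-base words with its copy Tgtp2. On the falling side, Ifit1, which binds viral RNA that lacks a host cap, went from 236, 173 and 172 CPM to 65.0, 65.6 and 73.7 CPM (log2 fold change -1.51, SE 0.14, adjusted p = 5.43e-06). Rsad2, the antiviral enzyme viperin, was at 42.0, 48.7 and 43.4 CPM untreated and at 12.3, 15.9 and 16.5 CPM under DSS (log2 fold change -1.59, SE 0.16, adjusted p = 2.24e-05). Irf7, a transcription factor that amplifies type I interferon, went from 678, 672 and 634 CPM to 410.5, 405 and 377 CPM (log2 fold change -0.73, SE 0.08, adjusted p = 5.31e-05). In each of these genes the 3 samples of a group lay on 1 side of the other group, as in nearly all called genes. Stat2 and Irf9, factors of the type I interferon complex, had log2 fold changes of -0.05 and -0.09, and neither passed. The count of interferon-gamma-inducible genes that rose was 12 without DSS replicate 3, and 9 type I genes fell without DSS replicate 1 or without untreated replicate 2. The fit on the 6 WT samples alone called 12 and 10.

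**Figure D3:**
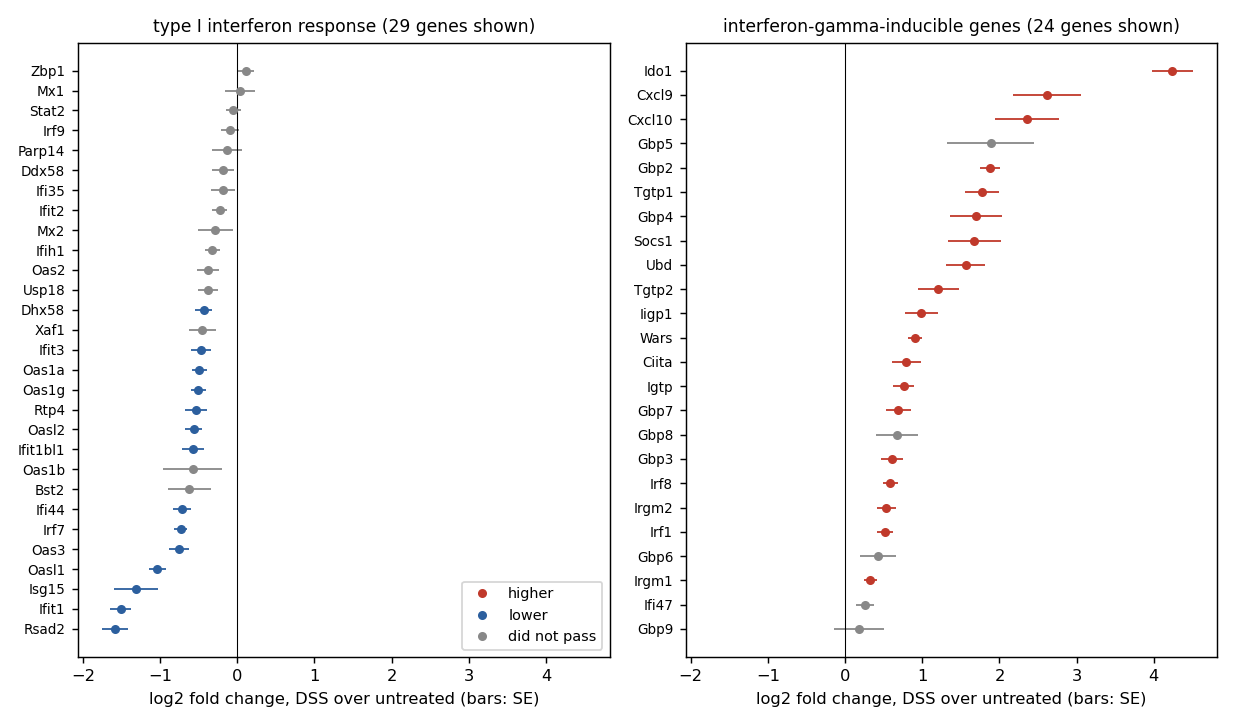
Log2 fold change of 29 of the 30 tested genes of the type I interferon list (left) and of the 24 of the interferon-gamma-inducible list (right), DSS over untreated, with bars of 1 standard error. Red points rose, blue points fell and grey points did not pass; 14 genes fell on the left and 19 rose on the right.

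The upstream windows of 5 interferon genes are shown because the word GAAANNGAAA, the core of the interferon-stimulated response element, was found in genes that rose (Gbp2, Cxcl10 and Tgtp1) and in genes that fell (Ifit1 and Rsad2). Capitals mark that word, GGGANNTTCC for NF-kB and TTCNNNGAA for STAT dimers, each on both strands. The words TTTATNG for CDX factors and CAAAGTCCA for HNF4, found in 9.81% and 0.384% of all windows of the table, were searched too and are not capitalised; the Cxcl10 window holds the CDX word once. The windows are chr3:142620413-142620662 on the plus strand for Gbp2, chr5:92348890-92349139 on the minus strand for Cxcl10, chr11:48992247-48992496 on the minus strand for Tgtp1, chr19:34640639-34640888 on the plus strand for Ifit1 and chr12:26456453-26456702 on the minus strand for Rsad2.
Gbp2: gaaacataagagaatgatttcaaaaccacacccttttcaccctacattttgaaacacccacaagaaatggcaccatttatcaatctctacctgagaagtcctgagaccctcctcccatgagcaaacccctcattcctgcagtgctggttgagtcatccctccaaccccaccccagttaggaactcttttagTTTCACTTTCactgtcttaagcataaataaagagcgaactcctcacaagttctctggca
Cxcl10: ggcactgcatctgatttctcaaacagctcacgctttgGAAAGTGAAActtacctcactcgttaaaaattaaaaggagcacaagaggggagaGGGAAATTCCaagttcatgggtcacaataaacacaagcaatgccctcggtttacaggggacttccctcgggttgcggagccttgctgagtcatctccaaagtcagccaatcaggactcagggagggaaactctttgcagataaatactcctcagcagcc
Tgtp1: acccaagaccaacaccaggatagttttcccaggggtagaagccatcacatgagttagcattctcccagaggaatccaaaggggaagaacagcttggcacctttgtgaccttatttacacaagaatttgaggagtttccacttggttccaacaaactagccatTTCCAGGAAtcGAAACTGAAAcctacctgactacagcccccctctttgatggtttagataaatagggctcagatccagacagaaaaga
Ifit1: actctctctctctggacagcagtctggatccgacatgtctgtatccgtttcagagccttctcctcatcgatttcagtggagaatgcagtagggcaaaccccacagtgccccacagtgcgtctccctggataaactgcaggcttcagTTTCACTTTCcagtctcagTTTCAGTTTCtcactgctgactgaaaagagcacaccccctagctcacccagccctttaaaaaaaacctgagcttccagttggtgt
Rsad2: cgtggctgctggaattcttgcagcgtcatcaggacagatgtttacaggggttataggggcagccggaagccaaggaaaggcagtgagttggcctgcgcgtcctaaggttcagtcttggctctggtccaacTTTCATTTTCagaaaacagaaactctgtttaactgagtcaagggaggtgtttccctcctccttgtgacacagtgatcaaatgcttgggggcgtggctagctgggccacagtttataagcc
Gbp2 and Rsad2 hold the interferon word once, Ifit1 holds it at 2 places, Cxcl10 holds it together with an NF-kB word, and Tgtp1 holds it next to a STAT word. The interferon word was in 57.9% of the 19 windows of the interferon-gamma list, which cover 16 genes. It was in 47.8% of the 23 windows of the type I list, which cover 20 genes, against 2.98% of all windows. The STAT word was in 42.1% of the interferon-gamma windows and in 13% of the type I windows, against 7.02% of all windows. Over all called genes with a window in the table, the interferon word was in 7.74% of the windows of genes that rose and in 6.41% of those of genes that fell.

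Of 22 class I antigen presentation genes tested 5 rose, and of 9 class II genes 4 rose. Tap1, a subunit of the peptide transporter into the endoplasmic reticulum, went from 365, 338 and 385 CPM to 469, 476 and 517 CPM (log2 fold change 0.43, adjusted p = 0.00886). H2-DMa, which loads peptide onto class II molecules, went from 51.7, 48.4 and 49.9 CPM to 81.2, 88.0 and 87.1 CPM (log2 fold change 0.77, adjusted p = 0.00241). Cd74, the class II invariant chain, rose by 0.56 and Ciita, the class II transactivator, by 0.79. Without DSS replicate 1, 1 class I gene rose, and without DSS replicate 3 or untreated replicate 2, 1 gene rose in each list.

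Genes of the absorptive colonocyte fell. Of 25 tested, 16 fell and 2 rose, with a median log2 fold change of -0.77. The list was chosen with earlier results of these data known and holds some of the largest decreases, such as Pla2g4c, Tmigd1 and Clca4a. Its share is therefore a description and no separate test. Car1, a carbonic anhydrase of surface colonocytes, was at 6994, 6062 and 8149 CPM untreated and at 1432, 1578 and 1177 CPM under DSS (log2 fold change -2.34, SE 0.14, adjusted p = 9.89e-08). Emp1, a membrane protein of surface cells, went from 1029, 854 and 679 CPM to 129.7, 110.1 and 113 CPM (log2 fold change -2.86, SE 0.14, adjusted p = 1.26e-08). Krt20, the keratin of differentiated surface epithelium, went from 2748, 2569 and 1937 CPM to 922, 893 and 1070 CPM (log2 fold change -1.33, SE 0.12, adjusted p = 5.15e-06). The lowest untreated sample lay above the highest DSS sample in each of these genes, as in nearly all genes called lower. The 2 colonocyte genes that rose were Clca4b, a calcium-activated chloride channel regulator, and Slc37a2, a sugar-phosphate exchanger, the latter from 148, 140.4 and 106 CPM to 425, 391.5 and 437 CPM (log2 fold change 1.67, SE 0.12, adjusted p = 6.56e-07). In bulk RNA, fewer cells of a type and less RNA of a gene per cell cannot be told apart. Between 14 and 17 colonocyte genes fell as single WT libraries were left out.

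Clca4a and Clca4b, neighbouring copies of 1 gene, went opposite ways. Clca4a was at 100.3, 98.8 and 52.2 CPM untreated and at 8.35, 9.47 and 10.1 CPM under DSS (log2 fold change -3.17, SE 0.25, adjusted p = 2.16e-06). Clca4b was at 112, 119 and 61.2 CPM and at 671, 605 and 636 CPM (log2 fold change 2.71, SE 0.19, adjusted p = 4.10e-07). Untreated replicate 3 was the lowest untreated sample of both genes. Of their transcripts' 50-base words, 37.1% of Clca4a and 24.8% of Clca4b also occur in other genes, mainly each other and a pseudogene, so how reads were divided between them is uncertain.

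Of 34 ion, acid-base and short-chain fatty acid transporter genes tested, 10 fell and 2 rose. Slc9a3, the apical sodium-proton exchanger of absorption, was at 135, 125 and 119 CPM untreated and at 10.3, 12 and 9.13 CPM under DSS (log2 fold change -3.58, SE 0.15, adjusted p = 3.66e-09). Slc26a3, the apical chloride-bicarbonate exchanger, went from 1361, 1212 and 839 CPM to 399, 362 and 440.3 CPM (log2 fold change -1.51, SE 0.15, adjusted p = 1.24e-05). Sgk1, a kinase that stimulates sodium transport, went from 189, 186 and 197 CPM to 40.4, 38.0 and 37.0 CPM (log2 fold change -2.31, SE 0.12, adjusted p = 2.30e-08). In each of these 3 genes the lowest untreated sample lay above the highest DSS sample, as in nearly all genes called lower. Untreated replicate 3 was the lowest untreated sample of Slc9a3 and Slc26a3. Best2, a bicarbonate channel of goblet cells, rose by 1.45 on the log2 scale. The epithelial sodium channel subunit gene Scnn1a (-0.16) and the butyrate transporter gene Slc16a1 (-0.14) did not pass.

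Of 12 aquaporin and carbonic anhydrase genes tested, 5 fell and none rose. Aqp8, the water channel of surface colonocytes, was at 407, 356 and 179 CPM untreated and at 41.5, 58.3 and 40.8 CPM under DSS (log2 fold change -2.74, SE 0.24, adjusted p = 4.30e-06). The membrane-bound carbonic anhydrases Car4 and Car12 fell by 2.09 and 2.16 on the log2 scale. Of 27 brush border genes, 11 fell and none rose. Alpi, the intestinal alkaline phosphatase, was at 41.4, 45.6 and 36.3 CPM and at 2.73, 7.60 and 4.24 CPM (log2 fold change -3.06, SE 0.30, adjusted p = 1.23e-05). Cdhr2, a protocadherin that links microvilli, fell by 0.90 and the metalloprotease subunits Mep1a and Mep1b by 1.17 and 1.26. Vil1, the actin bundler villin of the same structure, had a log2 fold change of -0.29 (adjusted p = 0.273) and did not pass.

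**Figure D4:**
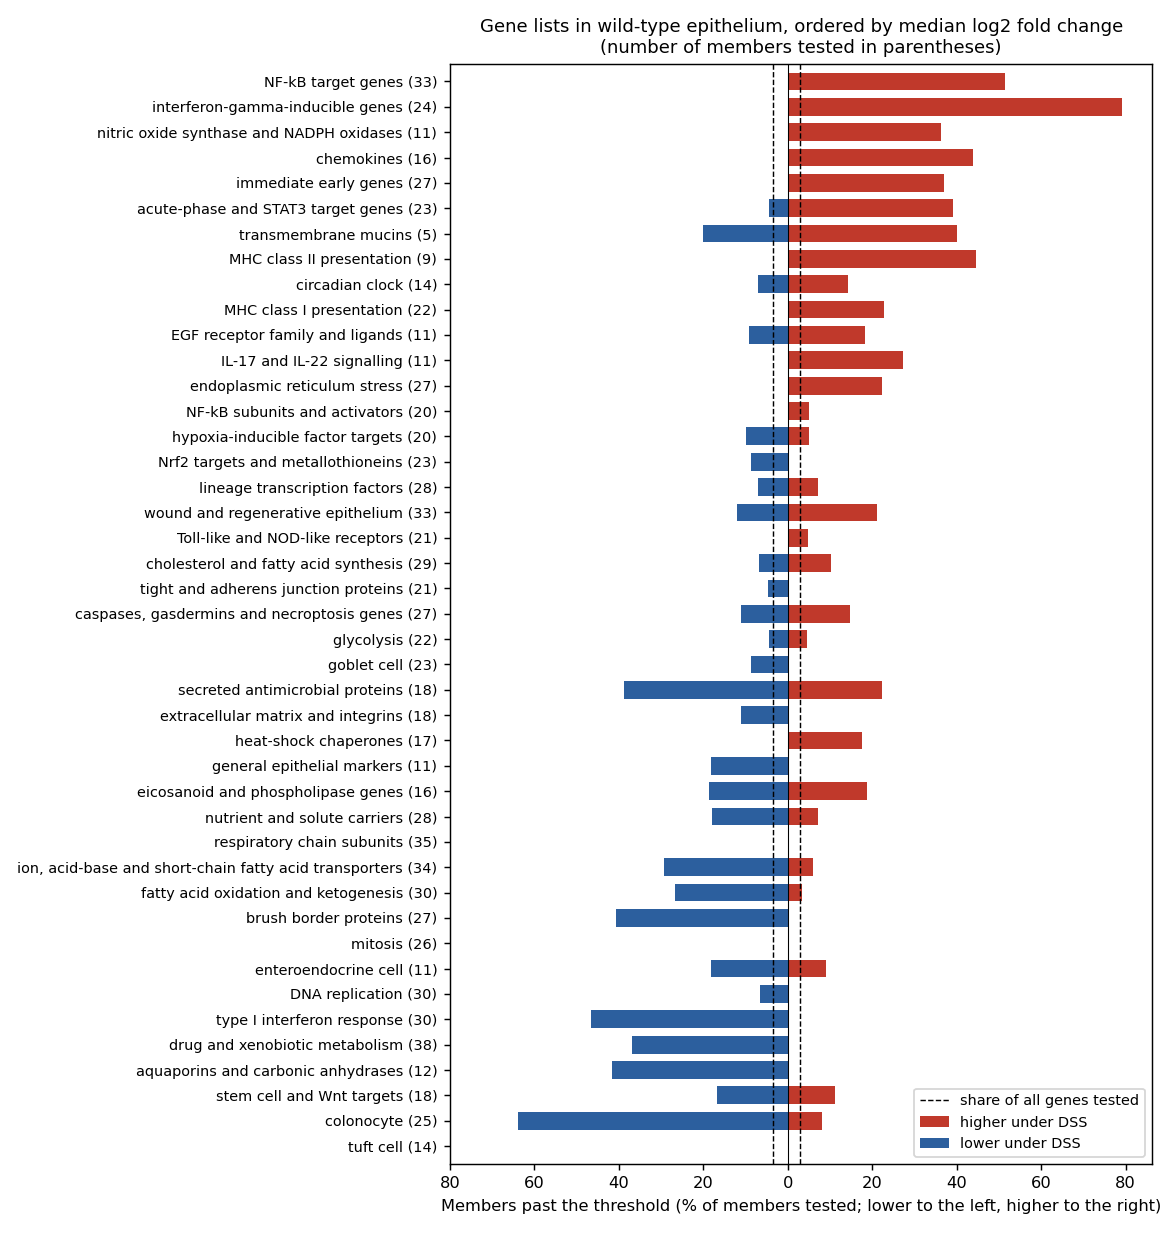
Share of the tested members of each gene list that rose (red, to the right) or fell (blue, to the left) in WT epithelium under DSS, as percent of the members tested, ordered by median log2 fold change. Dashed lines mark the 2.80% and 3.50% of all genes tested; interferon-gamma-inducible and NF-kB target genes reach furthest to the right and colonocyte and type I interferon genes furthest to the left.

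Detoxification and lipid oxidation genes fell as well. Of 38 drug and xenobiotic genes tested, 14 fell and none rose. Cyp2c55, a cytochrome P450 of the colon, was at 2686, 2169 and 1879 CPM untreated and at 328, 372 and 287 CPM under DSS (log2 fold change -2.77, SE 0.15, adjusted p = 2.30e-08). Cyp2c65 fell by 2.26, Cyp4f14 by 1.78 and the drug exporter Abcg2 by 1.42. Of 30 genes of fatty acid oxidation and ketogenesis, 8 fell and 1 rose. Acaa2, the thiolase of the last step of mitochondrial beta-oxidation, went from 228, 187 and 195 CPM to 142, 151 and 149.9 CPM (log2 fold change -0.46, SE 0.10, adjusted p = 0.0128). Etfa, a carrier of electrons from that oxidation, had a log2 fold change of -0.44 and fell. The count of 8 was 2 without DSS replicate 1, without DSS replicate 3 or without untreated replicate 1, 4 without DSS replicate 2, 5 without untreated replicate 2 and 1 in the fit on the 6 WT samples alone. Of 35 respiratory chain subunit genes none passed, 28 had values below 0, and the median was -0.14.

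Nutrient uptake genes were lower in some carriers and higher in others. Of 28 nutrient and solute carriers tested, 5 fell (17.9%) and 2 rose (7.14%), beside 3.50% and 2.80% of all genes. Slc15a1, the peptide transporter, was at 38.6, 42.2 and 25.5 CPM untreated and at 5.62, 12.1 and 11.2 CPM under DSS (log2 fold change -1.87, SE 0.29, adjusted p = 9.17e-04). Slc51a, 1 chain of the basolateral bile acid exporter, went from 18.2, 21.2 and 42.5 CPM to 4.10, 3.87 and 4.57 CPM (log2 fold change -2.71, SE 0.43, adjusted p = 0.00105), a call that was lost with the leukocyte covariate. Slc40a1, the iron exporter ferroportin, rose by 0.56, and its call was lost in 4 of the 13 alternatives. Of 29 genes of cholesterol and fatty acid synthesis 3 rose (10.3%), among them Acly, which makes cytosolic acetyl-CoA (0.64), and 2 fell (6.90%), Hmgcs1 (-0.42) and Elovl6 (-1.12).

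Of 21 tight and adherens junction genes 1 fell, the cation-channel claudin gene Cldn15 (-0.68, adjusted p = 0.00777), and none rose, a share of 4.76% beside the 3.50% of all genes that fell. Without untreated replicate 3, 2 of them rose and 2 fell, and DESeq2 called 2 higher. Cldn2, another pore-forming claudin, had a log2 fold change of -0.14 (adjusted p = 0.806). Of 5 transmembrane mucin genes, Muc1 was at 14.3, 11.8 and 8.34 CPM untreated and at 87.0, 109 and 104 CPM under DSS. Muc13 rose by 0.48 and Muc3 had a log2 fold change of -0.42 and fell. Muc13 did not pass without DSS replicate 1 or 2, and Muc3 without DSS replicate 2.

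The lipid mediator genes split by enzyme. Of 16 eicosanoid and phospholipase genes, Pla2g4a, Pla2g2a and Pla2g5 rose by 0.44, 1.61 and 0.74 on the log2 scale. Pla2g4c, described above, Hpgd, which inactivates prostaglandins, and Ptger4, a prostaglandin E2 receptor, fell by 4.04, 0.58 and 1.11. Without DSS replicate 3 or with the leukocyte covariate none of the 16 rose, and the call of Pla2g4a was lost in 10 of the 13 alternatives, among them each fit that left out a WT library.

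Of 28 transcription factors of intestinal lineages tested, 2 fell and 2 rose, 7.14% each way beside 3.50% and 2.80% of all genes. Cdx2, the homeobox factor of intestinal fate, was at 295, 265 and 194 CPM untreated and at 85.3, 90.5 and 87.6 CPM under DSS (log2 fold change -1.52, SE 0.14, adjusted p = 9.21e-06). Pparg, the nuclear receptor that drives lipid genes in colonocytes, went from 157, 178 and 176 CPM to 75.8, 84.3 and 80.1 CPM (log2 fold change -1.09, SE 0.13, adjusted p = 1.20e-04). Hoxb13, a factor of the distal colon, rose by 0.65 and Elf3, an epithelial ETS factor, by 0.38. The call of Elf3 was lost without any 1 of the DSS replicates. Hnf4a, a nuclear receptor of enterocyte genes, had a log2 fold change of -0.06 (adjusted p = 0.822).

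The other lineages of the epithelium showed fewer calls. Of 23 goblet cell genes, Guca2a, which encodes guanylin, fell by 2.40 and Clca1, a mucus-processing protease, fell by 1.05, and none rose. The share that fell was 8.70%, beside 3.50% of all genes, and Guca2a is also counted in the colonocyte list. Muc2, the main mucin of mucus, had a log2 fold change of -0.14 (adjusted p = 0.522). None of 14 tuft cell genes passed, although all 14 values were below 0 with a median of -0.78. Dclk1, a defining tuft cell kinase, was at 6.27, 7.88 and 15.1 CPM untreated and at 5.16, 2.40 and 5.38 CPM under DSS (log2 fold change -1.18, SE 0.52, adjusted p = 0.249). Among 11 enteroendocrine genes Tac1 rose, while the granule protein gene Chgb and the prohormone convertase gene Pcsk1 fell by 0.81 and 1.56. Without DSS replicate 2, DSS replicate 3 or untreated replicate 1, neither Chgb nor Pcsk1 passed. Of 18 stem cell and Wnt target genes 2 rose and 3 fell, among them Axin2, a feedback inhibitor of Wnt signalling, at 3.35, 7.55 and 7.42 CPM untreated and 1.67, 2.13 and 0.326 CPM under DSS (adjusted p = 0.0333), and these counts ranged from 0 to 2 and from 1 to 5 as single WT libraries were left out.

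Repair genes were mixed. Of 33 genes of wounded or regenerating epithelium, 7 rose and 4 fell. Among the 4 is Emp1, which is also counted in the colonocyte list. Ccn1, a matricellular target of YAP, was at 29.9, 40.2 and 41.9 CPM untreated and at 107, 97.3 and 104 CPM under DSS (log2 fold change 1.46, SE 0.15, adjusted p = 2.33e-05). Plet1, a surface protein of regenerating colon, rose by 1.16 and Hbegf, a ligand of the EGF receptor, by 0.72. Areg, another ligand of that receptor, went from 66.8, 64.6 and 67.2 CPM to 48.9, 44.3 and 33.6 CPM (log2 fold change -0.65, adjusted p = 0.0232), and Cd55, a complement regulator, fell by 1.31. Areg passed in 7 of the 13 alternatives, and 2 genes of the list fell without DSS replicate 2. Of 30 DNA replication genes 2 fell (6.67%, beside 3.50% of all genes) and 29 had values below 0, with a median of -0.40. Of 26 mitosis genes none passed and 25 had values below 0, with a median of -0.32. No replication gene passed without untreated replicate 3, DSS replicate 1 or DSS replicate 2, while 2 mitosis genes fell without untreated replicate 1 and 3 without untreated replicate 2.

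Immediate early genes rose. Of 27 tested, 10 rose and none fell. Nr4a1, an orphan nuclear receptor induced within minutes of a stimulus, was at 13.7, 14.3 and 25.8 CPM untreated and at 56.2, 55.1 and 49.2 CPM under DSS (log2 fold change 1.58, SE 0.22, adjusted p = 3.20e-04). Junb, an AP-1 subunit, went from 253, 270.0 and 265 CPM to 463, 457 and 461 CPM (log2 fold change 0.81, SE 0.08, adjusted p = 1.23e-05). Atf3 rose by 1.30, Zfp36, which destabilizes cytokine messages, by 1.00, Egr1 by 0.84 and Fos by 0.35. These genes are also known to answer to tissue dissociation, which every sample went through, and its part in the result was not tested.

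Other stress programmes gave fewer calls than the immediate early genes. Of 27 genes of endoplasmic reticulum stress 6 rose (22.2%, beside 2.80% of all genes) and none fell. Among the 6, Ppp1r15a, the phosphatase subunit GADD34, rose by 1.02, Herpud1 by 0.65 and Xbp1 by 0.45. That count was 3 without DSS replicate 1 or untreated replicate 2 and 2 with the leukocyte covariate. Of 17 heat-shock chaperone genes 3 rose (17.65%) and none fell, with Dnajb1 rising by 0.96. The chaperone count was 1 to 2 as single WT libraries were left out. Of 23 Nrf2 target genes none rose and 2 fell (8.70%, beside 3.50% of all genes). Among the 2 was Nfe2l2, which encodes Nrf2, from 349, 337 and 296 CPM to 226, 214 and 219.8 CPM (log2 fold change -0.57, adjusted p = 0.00124). Among 20 targets of hypoxia-inducible factors Pdk1, which restrains pyruvate oxidation, rose by 0.82, while Car9 and Ndrg1 fell by 0.44 and 0.68. The call of Car9 was lost in 7 of the 13 alternatives, and the lower count of 2 became 0 without DSS replicate 1, 4 without untreated replicate 3 and 1 without untreated replicate 2, DSS replicate 2 or DSS replicate 3.

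Of 27 caspase, gasdermin and necroptosis genes tested, 4 rose and 3 fell, and the 3 that fell were gasdermin C copies. Gsdmc2 was at 9985, 9169 and 5622 CPM untreated and at 2194, 2089 and 1893 CPM under DSS (log2 fold change -2.00, SE 0.16, adjusted p = 1.92e-06). Gsdmc4 and Gsdmc3 fell by 1.49 and 1.15. Between 39.0% and 51.3% of their 50-base words occur in other gasdermin C copies, so the division of reads among the 3 is uncertain. Ripk3, the kinase of necroptosis, rose by 0.61 and Pmaip1, the BH3-only protein NOXA, by 0.92. The count of 4 was 2 without untreated replicate 2, untreated replicate 3 or any 1 of the DSS replicates, and the call of Ripk3 was lost with the leukocyte covariate (adjusted p = 0.150).

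Of 14 clock genes, 2 rose (14.3%) and 1 fell (7.14%), beside 2.80% and 3.50% of all genes. Nr1d1, the repressor REV-ERB-alpha, was at 31.1, 39.4 and 42.8 CPM untreated and at 117, 114 and 98.7 CPM under DSS (log2 fold change 1.54, SE 0.14, adjusted p = 5.50e-06). Per3 went from 3.06, 7.05 and 8.96 CPM to 19.0, 19.1 and 20.6 CPM (log2 fold change 1.62, adjusted p = 0.00671), and Cry1 went from 60.2, 47.2 and 45.1 CPM to 26.7, 26.4 and 20.6 CPM (log2 fold change -1.05, adjusted p = 0.0128). The call of Cry1 was lost without untreated replicate 1 or DSS replicate 3. The hour of day at which the mice were killed is not given in the sources used here, and its part in the result was not tested. Nr1d1 overlaps Thra on the opposite strand.

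Markers of leukocytes moved with the treatment. The summed level of 10 pan-leukocyte markers was 50.1 to 71.9 CPM untreated and 80.1 to 106 CPM under DSS, and 2 of 9 tested rose. Ptprc, which encodes CD45, was at 11.8, 9.19 and 6.95 CPM untreated and at 13.5, 14.9 and 15.5 CPM under DSS and did not pass (log2 fold change 0.65, adjusted p = 0.255). Of 18 myeloid markers, 15 were tested and 5 rose, a count that was 2 without DSS replicate 1, 3 without untreated replicate 1 and 2 in the fit on the 6 WT samples alone. Their sum without Cd14, which epithelial cells also express, was 14.6, 19.2 and 9.27 CPM untreated and 48.1, 36.0 and 45.8 CPM under DSS. Adgre1, the macrophage marker F4/80, had counts of 0, 0 and 0 untreated and of 17, 2 and 13 under DSS, at least 10.2-fold higher against a floor of 3 counts over the group, and Ly6c2 of monocytes had 0, 0 and 0 and then 5, 10 and 2, at least 5.45-fold higher.

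Markers of other cell types that the isolate could hold were summed in the same way. The sum of 21 T cell markers was 15.9 to 38.4 CPM untreated and 39.1 to 59.7 CPM under DSS. Of 17 tested 1 rose (5.88%, beside 2.80% of all genes). It was Cd3e (log2 fold change 2.06, adjusted p = 0.0355), a call that was lost in 10 of the 13 alternatives. Neutrophil markers summed to 19.6 to 61.0 CPM untreated and 32.5 to 41.0 CPM under DSS. Most of it was Ly6g (53.9, 57.1 and 15.9 CPM and 32.6, 36.4 and 26.1 CPM), which is also in the list of wounded or regenerating epithelium used here. Mpo, Elane and Camp had no count in any WT sample, and which cells held the Ly6g RNA was not tested. None of the 3 neutrophil markers tested passed, and S100a8 was under 1 CPM in every WT sample. B and plasma cell markers summed to 712 to 855 CPM and 765 to 778 CPM, of which Sdc1 and Xbp1 are also epithelial genes. Of 7 tested, 2 rose (28.6%) and 1 fell (14.3%), beside 2.80% and 3.50% of all genes. In 5 of the 7 the DSS samples all lay above the untreated ones, as they did in 10.7% of all genes tested. Ighg2b, an immunoglobulin heavy chain constant gene, was at 5.10, 2.13 and 0.464 CPM untreated and at 11.2, 9.87 and 13.1 CPM under DSS (log2 fold change 2.13, SE 0.51, adjusted p = 0.0196). Its call was lost in 5 of the 13 alternatives, among them those without untreated replicate 2, DSS replicate 1 or DSS replicate 3, and without any 1 of these 3 libraries 1 gene of the list rose. Fibroblast and smooth muscle markers summed to 16.7 to 29.3 CPM and 25.1 to 35.2 CPM, endothelial markers to 5.39 to 10.7 CPM and 6.53 to 10.02 CPM, and Col1a1 was at or near 0 in every WT sample.

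**Figure D5:**
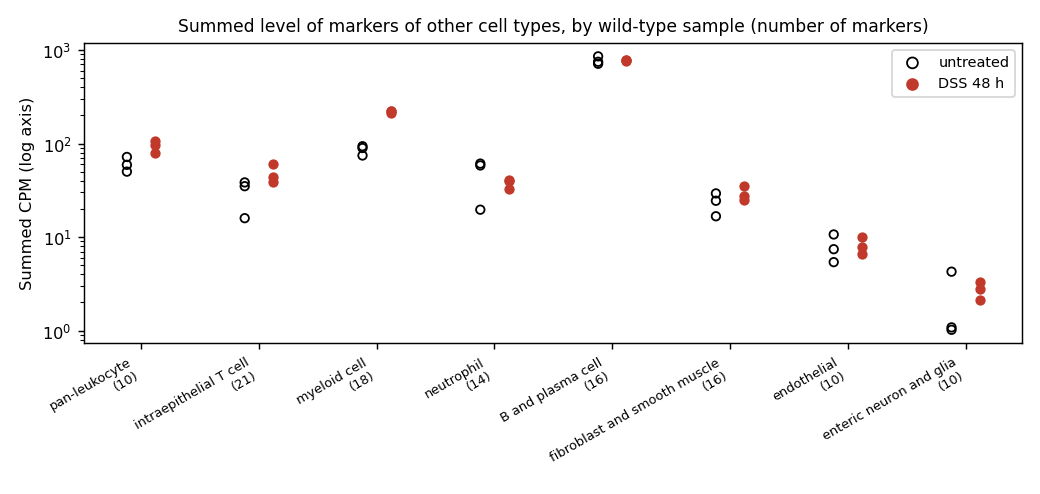
Summed CPM (log axis) of the markers of 8 other cell types in each WT sample, with the number of markers in parentheses; open points are untreated and red points DSS samples. Pan-leukocyte, T cell and myeloid sums are higher in all 3 DSS samples than in all 3 untreated samples, and the neutrophil and B cell sums overlap.

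With the mean log2 CPM of 9 pan-leukocyte markers as a covariate, 207 genes rose and 416 fell in place of 351 and 438. Of the 789 genes, 362 were among those called. The covariate moves with the treatment, so the 2 are partly confounded in these samples. In that fit 16 colonocyte genes fell, and 16 interferon-gamma-inducible and 9 immediate early genes rose, against 16, 19 and 10 without the covariate. In that fit 2 of 11 oxidase and nitric oxide synthase genes, 2 of 18 antimicrobial genes, 2 of 33 repair genes and 1 of 27 death genes rose. The calls of Acaa2, Areg, Axin2, Best2, Ciita, Cry1, Duox2, Elf3, H2-DMa, Hoxb13, Muc13, Muc3, Ndrg1, Pcsk1, Pdk1, Plet1, Ptger4, Slc40a1, Slpi and Xbp1 were also lost there. What part of the rise in NF-kB and chemokine genes came from epithelial cells was not tested.

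The same contrast in Nfkb2-/- mice gave other values for many of these genes. The DSS effect differed between the genotypes in 213 of 12522 genes (1.70%, interaction term of the same edgeR model). The 15 largest increases and 15 largest decreases were chosen by their size in WT, which leans their comparison toward smaller changes in the knockout, so the values are given as a description. Nfkb2 was at 11.7, 17.4 and 13.9 CPM in untreated and at 19.6, 15.6 and 17.2 CPM in DSS-treated knockout samples, against 30.8, 36.1 and 43.7 and 41.6, 46.1 and 39.6 CPM in WT. Tnf was at 11.6, 15.01 and 15.9 CPM in untreated and at 9.02, 9.79 and 12.3 CPM in DSS-treated knockout samples, a log2 fold change of -0.45 beside 3.19 in WT. Lrg1 went from 1.61, 1.47 and 1.19 CPM to 9.55, 8.75 and 12.5 CPM (log2 fold change 2.85 beside 6.12). Slc9a3 went from 92.8, 94.8 and 82.5 CPM to 17.0, 17.1 and 15.4 CPM (log2 fold change -2.45 beside -3.58). The knockout value had the sign of the WT value in 14 of the 15 largest increases and in 14 of the 15 largest decreases, and the interaction passed in 9 and 12 of them.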

How the data were processed

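RNA was measured in colonic epithelial cells by RNA-seq, from 2 ng of total RNA per library (RNA integrity numbers 7.2 to 9.2, median 8.8, per the labels), by a poly(A)-primed method without molecular identifiers or strand marks. The authors deposited raw counts, 1 whole number per gene and sample, with no scaling visible in the values. The submitters' processing notes name STAR 2.5.2b, featureCounts 1.5.0 and the build GRCm38 (mm10); the annotation release and strand setting are not given in the sources used here. Of 46517 gene IDs, 46005 were matched without version to GENCODE M21 for symbols and coordinates, and 512 kept their ID. Genes of the mitochondrial genome were listed at 0 in every library.

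Tests for differences used edgeR 4.0.16 under R 4.3.3: filterByExpr (12522 genes, 99.8% of counts), TMM scaling, 1 coefficient per group over all 12 samples and the two-sided quasi-likelihood F test, with Benjamini-Hochberg adjusted p under 0.05 over all genes tested. The script was tested on simulated data. CPM are counts scaled to the TMM-adjusted library total of the genes tested. The log2 CPM adds a prior count of 2, and SE is that of the fitted log2 fold change. CPM are not per length, so levels are not compared between genes. Intervals and floors (3 counts) cover counting error only. Pairs of replicates differed by 6.86 to 29.5 in chi-square per degree of freedom, so none was counted as a repeat.

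Gene lists (51) and the rule for naming genes were chosen with earlier results of these data known. Named were the 15 largest increases and 15 largest decreases among called genes with a mean of at least 3 log2 CPM over the 6 WT samples and no overlap between groups; per list up to 4 called members in each direction with the smallest adjusted p and a mean of at least 1 log2 CPM, or the 2 members with the highest CPM if none was called; Nfkb2; and defining markers of other cell types. Other genes given with a value were chosen after their values were seen. A few genes it picks out are not reported here. Shared 50-base words were counted in the GENCODE M21 transcripts. Alternatives were RLE scaling, other low-count filters, the 6 WT samples alone, DESeq2 1.42.0, a leukocyte covariate and a replicate block. An added fold threshold and leaving out each library were used too. The leukocyte covariate was the mean log2 CPM of 9 pan-leukocyte markers. Promoter windows of 250 bases came from RefSeq on GRCm38.p6, with 261 of the 351 and 345 of the 438 called genes matched.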

Additional observations from a re-analysis of the deposited data

Results flagged for a closer look

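The DSS effect differed between the genotypes, by the interaction term of the edgeR model (adjusted p under 0.05), in 21 of the genes chosen for the size of their change in WT, a choice that leans the difference toward a smaller change in the knockout. Given as the log2 fold change in Nfkb2-/- minus that in WT, the difference was below 0 for the following genes that rose in WT. It was -3.28 for Lrg1, -3.09 for Tac1, -3.54 for Ido1, -2.38 for Lbp and -3.64 for Tnf. It was -2.51 for Muc1, -1.77 for Nos2, -2.00 for Clca4b and -0.84 for Gbp2.

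The difference was above 0 for the following genes that fell in WT. It was 2.66 for 2010109I03Rik, 3.02 for Pla2g4c, 1.73 for Tmigd1 and 1.14 for Slc9a3, and 3.64 for Fn1, 2.93 for Pnliprp2, 2.04 for Clca4a and 1.89 for Alpi. For Dpep1 it was 1.82, for Emp1 1.60, for Sptssb 1.83 and for Cyp2c55 2.03. The difference did not pass for Socs3, Tns2, Steap4, Abcg5, Duoxa2, Aqp8, Ak4 and Slc51a, and a p that misses the threshold does not show that their effects were alike. Clca4a and Clca4b share part of their sequence, so their values may not be separate.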

How the results depend on the processing

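Against 789 genes for DSS in WT, RLE scaling gave 788, a filter of at least 10 counts in 6 samples 795, no filter 1017 of 23136 genes, and DESeq2 1057. The count moved with the samples used: 467 genes (192 higher, 275 lower) in the fit on the 6 WT samples alone, and 483 to 958 as single libraries were left out. Adding an absolute log2 fold change of at least 1 left 358. The leukocyte covariate gave 623 genes with 33.2% of them higher, against 44.5%, and the cause of that shift was not tested. For the difference between genotypes, 213 genes became 215 with RLE scaling, 356 without a filter, 360 with DESeq2 and 152 to 350 as single libraries were left out, the 350 being without untreated WT replicate 3. Untreated and DSS samples of WT with the same number correlated at 0.014, 0.12 and 0.128 in their deviations. Those of unlike number correlated at -0.1185 to 0.00955. No label states what the replicate numbers mean, but same-numbered WT samples carry consecutive library numbers. Whether the numbers mark pairs was not tested, and the main fit does not pair the samples. A replicate block gave 892 genes in WT and 263 for the difference. Among the genes selected by the naming rule, Il18 reversed with the leukocyte covariate (log2 fold change -0.13, against 0.86).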
